A study of Mus musculus with 6 samples.

Results

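The genes of mitosis described here are 43 listed mitotic kinases, kinetochore proteins, spindle checkpoint proteins and genes of mitotic exit, taken as a pathway set and not by their values. They were found by exact gene symbol among the 34945 probe sets of the array that carry 1 symbol. Of the 43 genes, 42 had at least 1 probe set and together held 86, while Ccnb1 had none with a single symbol here. The level of a gene is the mean log2 value of its probe sets, and 41 of the 42 reached the minimum mean of 4 over all 6 arrays, the exception being the centromere protein gene Cenpb. The whole array held 18193 genes with a value, of which 8782 reached that minimum and were tested.

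The Dcr KO group was 3 cultures of Dicer flox/flox mouse embryonic stem (ES) cells given GFP together with Cre recombinase to delete the floxed part of Dicer1, and the Dcr WT group was 3 cultures of the same floxed cells given GFP alone. Total RNA was taken 5 days after transfection in both groups, from feeder-free cells on gelatin, and the methods describe biological triplicates and, for the acute deletion, a polyclonal population. Dicer1 makes mature miRNAs, and the comparison asks which transcripts change once miRNAs are lost. The paper describes the cells at 5 days as predominantly Dicer null, with a majority of miRNAs gone, so the loss may not have been complete. Neither group received Cre without floxed alleles, so Cre and the deletion cannot be told apart. A change in the share of cells in mitosis cannot be told apart from a change in RNA per cell. The paper states, citing earlier work, that cells proliferate more slowly after Dicer deletion. Dicer1 itself stood at 6.33, 6.59 and 5.92 on the log2 scale in Dcr KO arrays, against 7.78, 7.89 and 7.16 in Dcr WT arrays, so the groups did not overlap and Dcr KO averaged 39.7% of Dcr WT. Where its probe sets lie relative to the floxed part is not known here. That level is therefore a check of the labels and no measure of how much Dicer remained.

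In a dividing cell, cyclin B with Cdk1 starts mitosis once Cdc25 phosphatases have removed the inhibitory phosphates that Wee1 and Pkmyt1 place on Cdk1. Plk1 and the Aurora kinases then build the spindle and correct faulty attachments, kinetochores assemble on Cenpa chromatin and hold the microtubules, and the spindle checkpoint holds back Cdc20 and the anaphase-promoting complex until every chromosome is attached. Many of these genes are transcribed mainly in G2 and M, under Mybl2, Foxm1 and the MuvB complex, and ES cells cycle fast with a short G1.

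Most mitotic genes had a lower mean in Dcr KO cells, by small amounts, and few passed the test. With limma on all 8782 genes and Benjamini-Hochberg adjustment, 4 of the 41 tested members were lower (9.76%): Plk1, Cdca8, Cdc25c and Cenpa, at 60.1% to 73.8% of their Dcr WT levels. None (0) was higher, although 4 were higher at an unadjusted p under 0.05, against 10 lower. At that unadjusted p, 1518 of the 8782 genes tested were lower and 1295 higher. Among all genes tested, 6.42% were called lower and 6.91% higher, so the share of members called lower was not far from that of the array. The direction was more one-sided than the calls: 33 of the 41 differences (Dcr KO minus Dcr WT) lay below 0, which is 80.5%, against 53.0% of all genes tested. The members' differences ran from -0.74 to 0.49 with a median of -0.15, while the median over all genes tested was -0.02. All Dcr KO arrays lay below all Dcr WT arrays for 11 members (26.8%), above them for 4 (9.76%), and overlapped for 26. Over all genes tested those shares were 21.2% below and 17.7% above. Mki67, a proliferation marker outside the list, had a difference of -0.45 without overlap and did not pass (limma adjusted p = 0.0831). Its relation to the members' differences was not tested.

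**Figure D1:**
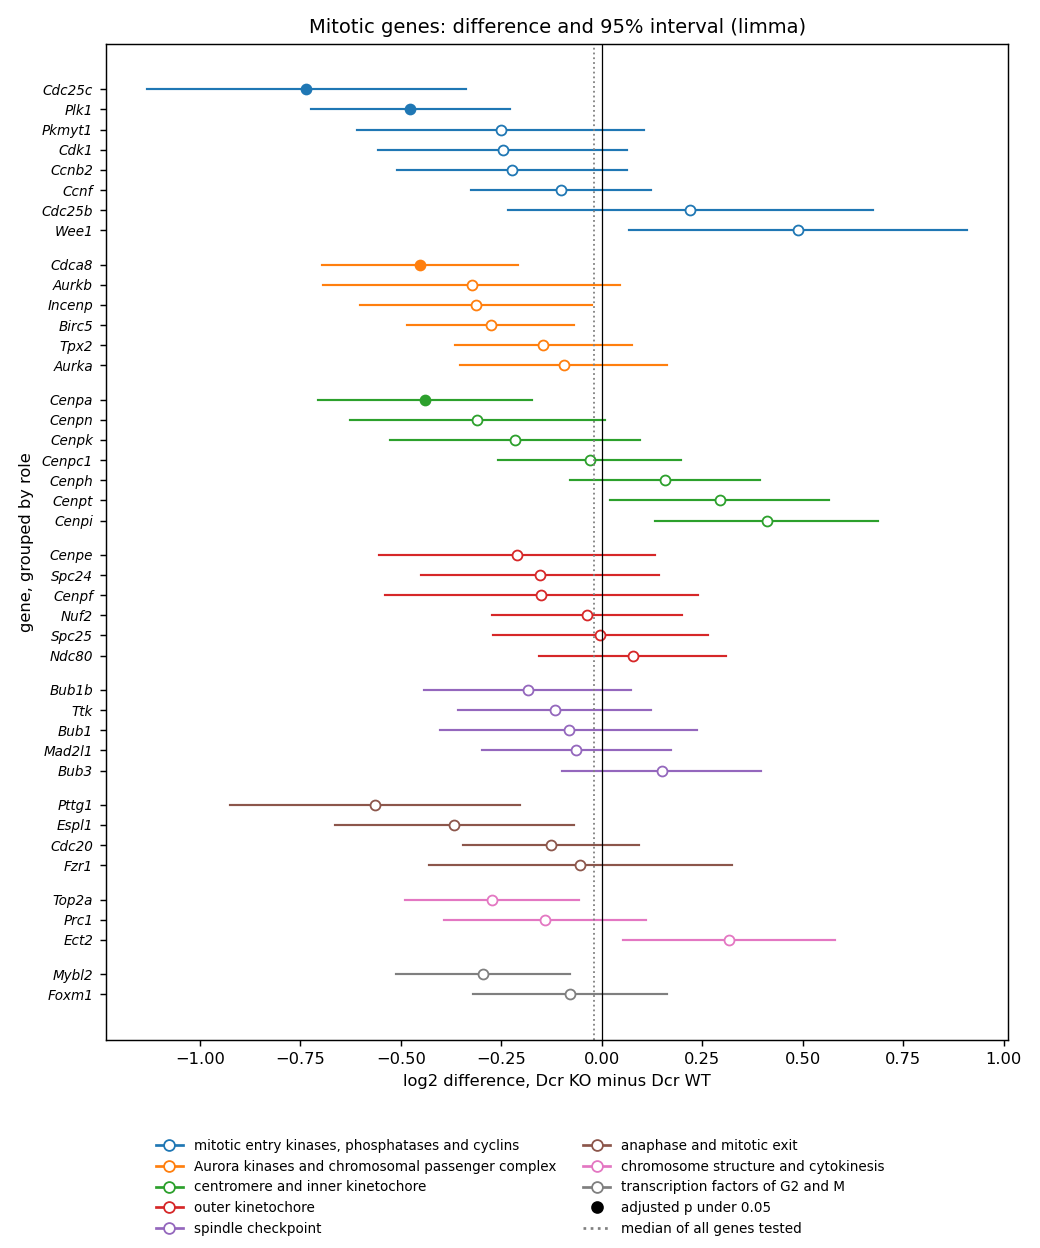
Log2 difference, Dcr KO minus Dcr WT (x axis), for the 41 tested mitotic genes in 8 role groups (y axis), with the 95% interval from limma as a line. Filled points are the 4 genes with an adjusted p under 0.05, the dotted line is the median of all genes tested (-0.02), and 33 of the 41 points lie left of 0.

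The median member was below its Dcr WT mean on each Dcr KO array. Against the Dcr WT mean of each gene, the median member stood at -0.11, -0.09 and -0.20 on Dcr KO replicates 1, 2 and 3, and at 0.02, -0.04 and 0.02 on Dcr WT replicates 1, 2 and 3. On those Dcr KO arrays 31, 27 and 32 of the 41 members were below their Dcr WT mean. Dcr WT replicate 2 also had 27 members below it, so the count alone does not set Dcr KO replicate 2 apart from it. The same median over all genes tested lay between -0.025 and -0.02 on the Dcr KO arrays. Dcr KO replicate 3 was the lowest, and without it the members' median difference was -0.09.

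**Figure D2:**
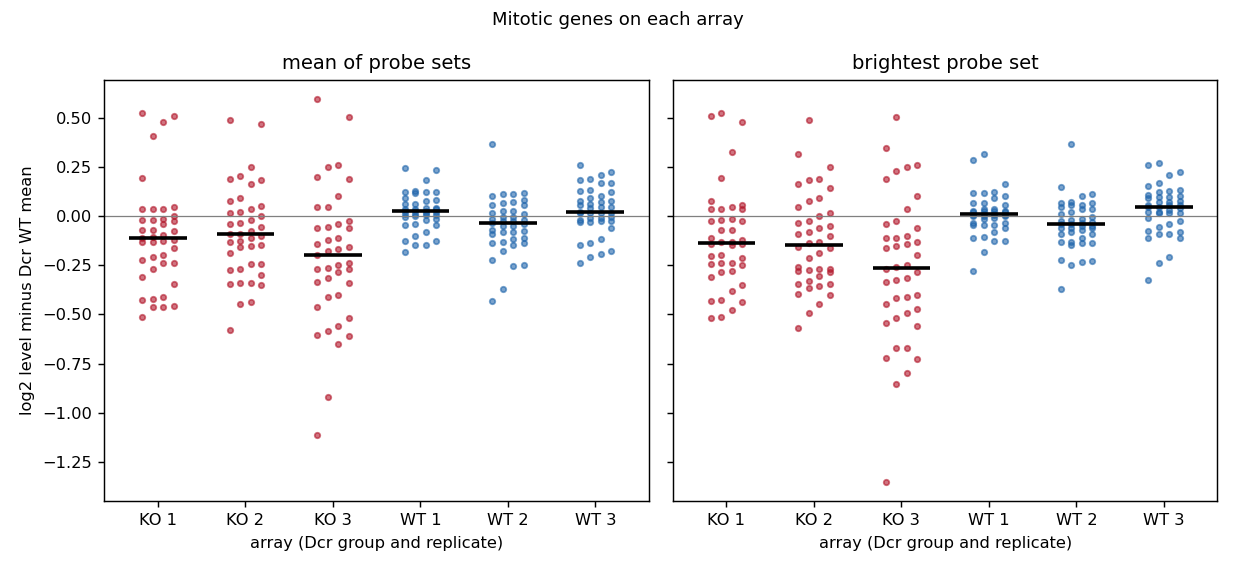
Each point is 1 mitotic gene on 1 array, as its log2 level minus its Dcr WT mean (y axis), with the 3 Dcr KO arrays left and the 3 Dcr WT arrays right. The left panel uses the mean of a gene's probe sets (41 genes), the right panel its brightest probe set (42 genes), and the black bars, the medians, are lowest on Dcr KO replicate 3, at -0.20 and -0.27.

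The promoters of many of these genes hold 2 letter motifs that are known from G2 and M genes. They are shown as description, and any part of the motifs in the differences was not tested. One is the CHR (cell cycle genes homology region, TTTGAA or TTCGAA), which MuvB complexes bind, and the other is the CCAAT box of NF-Y, both searched on either strand. RefSeq promoter windows on GRCm38.p6, from 250 bases before to 50 after the start, matched 35 of the 43 listed genes. A CHR stood in 21 of the 35 (60.0%), against 21.7% of all 27025 genes of the promoter table and 16.2% of the 7215 genes tested that have a window. A CCAAT box stood in 27 (77.1%), against 41.1% of all genes in the table, and both motifs in 57.1%, against 8.61%. In 20 of the 21 genes a CHR began no more than 30 bases before the start or after it. Cdc25c, Wee1, Pkmyt1, Tpx2, Aurkb, Incenp, Spc24 and Foxm1 are not among the 35.

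The stretches below run 5′ to 3′ on the strand of the gene, with CHR and CCAAT letters of either strand in capitals. Plk1, Cdca8 and Cenpa were lower in Dcr KO cells, and Cenpf was lower by its brightest probe set. Ccnb2 and Cdk1 are the cyclin and kinase of mitotic entry, and Cenpi, with no CHR, had a difference of 0.41. Cenpf, Ccnb2, Cdk1 and Cenpi were picked with their values known. Ect2, with a CHR and a difference above 0, and Pttg1, with no CHR and one below 0, are not printed.
Plk1, chr7:122159453-122159482, + strand, bases 19 to 48 from the start: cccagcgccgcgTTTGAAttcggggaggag
Cdca8, chr4:124936893-124937017, - strand, from 100 before to base 25: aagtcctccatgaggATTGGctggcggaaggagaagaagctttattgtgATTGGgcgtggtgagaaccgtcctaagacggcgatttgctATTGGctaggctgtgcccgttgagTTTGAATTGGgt
Cenpa, chr5:30666786-30666910, + strand, from 100 before to base 25: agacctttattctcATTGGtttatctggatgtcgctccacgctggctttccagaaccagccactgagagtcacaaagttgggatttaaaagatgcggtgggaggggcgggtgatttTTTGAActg
Cenpf, chr1:189688062-189688186, - strand, from 100 before to base 25: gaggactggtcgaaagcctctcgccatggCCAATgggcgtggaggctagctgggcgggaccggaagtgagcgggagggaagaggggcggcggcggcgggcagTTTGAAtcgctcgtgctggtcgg
Ccnb2, chr9:70421530-70421654, - strand, from 100 before to base 25: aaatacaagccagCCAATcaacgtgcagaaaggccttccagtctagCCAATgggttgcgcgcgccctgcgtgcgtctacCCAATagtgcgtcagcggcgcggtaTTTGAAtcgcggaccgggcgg
Cdk1, chr10:69352888-69353012, - strand, from 100 before to base 25: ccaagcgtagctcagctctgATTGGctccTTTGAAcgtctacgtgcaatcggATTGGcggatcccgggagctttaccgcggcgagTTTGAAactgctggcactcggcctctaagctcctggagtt
Cenpi, chrX:134307984-134308108, + strand, from 100 before to base 25: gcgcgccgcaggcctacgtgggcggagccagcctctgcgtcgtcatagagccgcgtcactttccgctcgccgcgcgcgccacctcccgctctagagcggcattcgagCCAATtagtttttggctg
In Cdca8 the CHR and a CCAAT match on the other strand share a base, the only such overlap (1) in the members' windows.

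Members with and without a CHR had overlapping differences. The 21 with one had a median difference of -0.14 (from -0.48 to 0.32), and 17 of them lay below 0. The 13 with a window but no CHR and a value on the array had a median of -0.05 (from -0.56 to 0.41), and 9 lay below 0. By the brightest probe set the medians were -0.25 with a CHR and -0.05 without. These are descriptions with no test. Ect2, with a CHR, had a difference above 0, and Pttg1, with none, had -0.56.

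**Figure D3:**
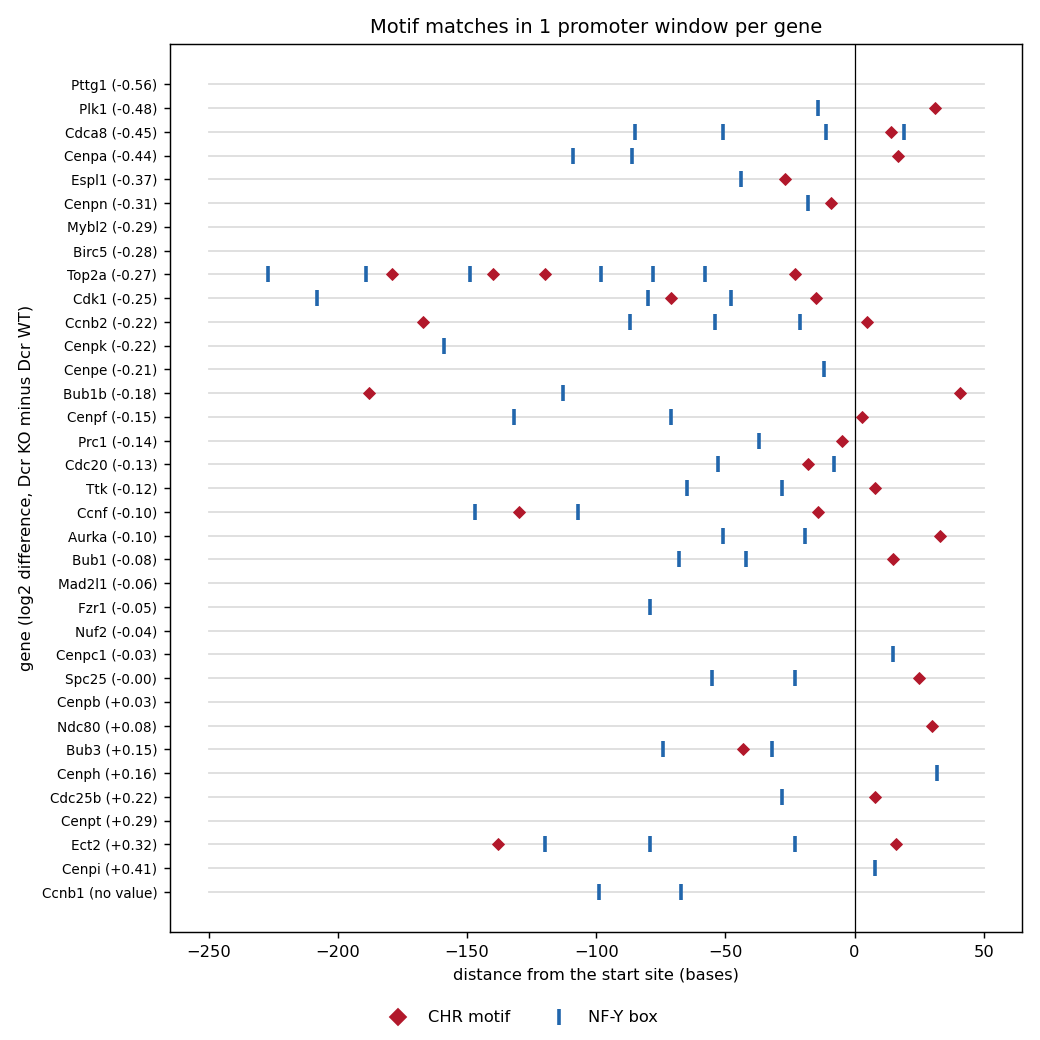
Positions of CHR motifs (diamonds) and NF-Y boxes (bars) by distance from the start site in bases (x axis), in 1 promoter window for each of 35 genes (y axis), ordered by log2 difference, Dcr KO minus Dcr WT, given in brackets. CHR matches gather near 0 in 20 genes and stand both among the most negative differences (Plk1, Cdca8, Cenpa) and among the positive ones (Cdc25b, Ect2).

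Of the mitotic entry genes, 2 of the 8 tested were lower in Dcr KO cells, Plk1 and Cdc25c, and the median difference was -0.24. Over all genes tested, 6.42% were called lower and 53.0% had differences below 0. Each role group holds few genes, so its counts are descriptions only. Plk1, the kinase that drives mitotic entry and spindle assembly, had log2 levels of 10.06, 10.04 and 9.93 in Dcr KO arrays, against 10.61, 10.35 and 10.50 in Dcr WT arrays. The groups did not overlap and each spread was smaller than the gap between the means. Plk1 was at 71.9% of Dcr WT, a difference of -0.48 ± 0.11 (SE, n = 3 arrays a group; limma adjusted p = 0.0288). Its single probe set leaves no second measurement of the gene.

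Cdc25c, a phosphatase that activates Cdk1, had 6.87, 6.81 and 6.27 in Dcr KO arrays, against 7.24, 7.41 and 7.51 in Dcr WT arrays. Dcr KO replicate 3 was far below the other two, and the groups did not overlap. The difference was -0.74 ± 0.17 (SE, n = 3 arrays a group; limma adjusted p = 0.0316), which is 60.1% of Dcr WT and the lowest difference among the 41. Both of its probe sets had all Dcr KO arrays below all Dcr WT arrays, with differences of -0.81 and -0.66. By its brightest probe set alone (-0.81) Cdc25c did not pass (limma adjusted p = 0.0597 among brightest probe sets).

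Wee1, the kinase that holds Cdk1 inactive, had the highest difference of the 41 over all arrays, with 9.23, 9.29 and 9.42 in Dcr KO arrays, against 9.07, 8.39 and 9.01 in Dcr WT arrays. The groups did not overlap, but Dcr WT replicate 2 was far below the other Dcr WT arrays. The difference of 0.49 ± 0.18 did not pass (SE, n = 3 arrays a group; limma adjusted p = 0.111). By its brightest probe set alone the levels were 10.16, 10.15 and 10.18 in Dcr KO arrays, against 9.82, 9.70 and 9.99 in Dcr WT arrays, a difference of 0.33 (limma adjusted p = 0.0871). Without Dcr WT replicate 2 the difference of Wee1 was 0.27, and that of Cdc25b was then 0.40. Cenpi (0.365), Ect2 (0.29) and Cenpt were also above Wee1 in that fit. By brightest probe sets Cenpi (0.41) was above Wee1 too. Wee1, Bub3 and Ect2 are in the candidate list that the study drew up partly from these arrays, so their direction is no independent evidence. The remaining entry genes did not pass and their groups overlapped: Cdk1, Ccnb2, Pkmyt1 and the F-box cyclin Ccnf had differences from -0.25 to -0.10, while the phosphatase gene Cdc25b had 0.22. By their brightest probe sets Pkmyt1 had -0.46 and Ccnf -0.29, each with all Dcr KO arrays below all Dcr WT arrays, and neither passed (limma adjusted p = 0.0887 and 0.0899). Cdc25b and Cdc25c, both activators of Cdk1, thus had differences of opposite sign, though the interval of Cdc25b ran from -0.23 to 0.67.

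**Figure D4:**
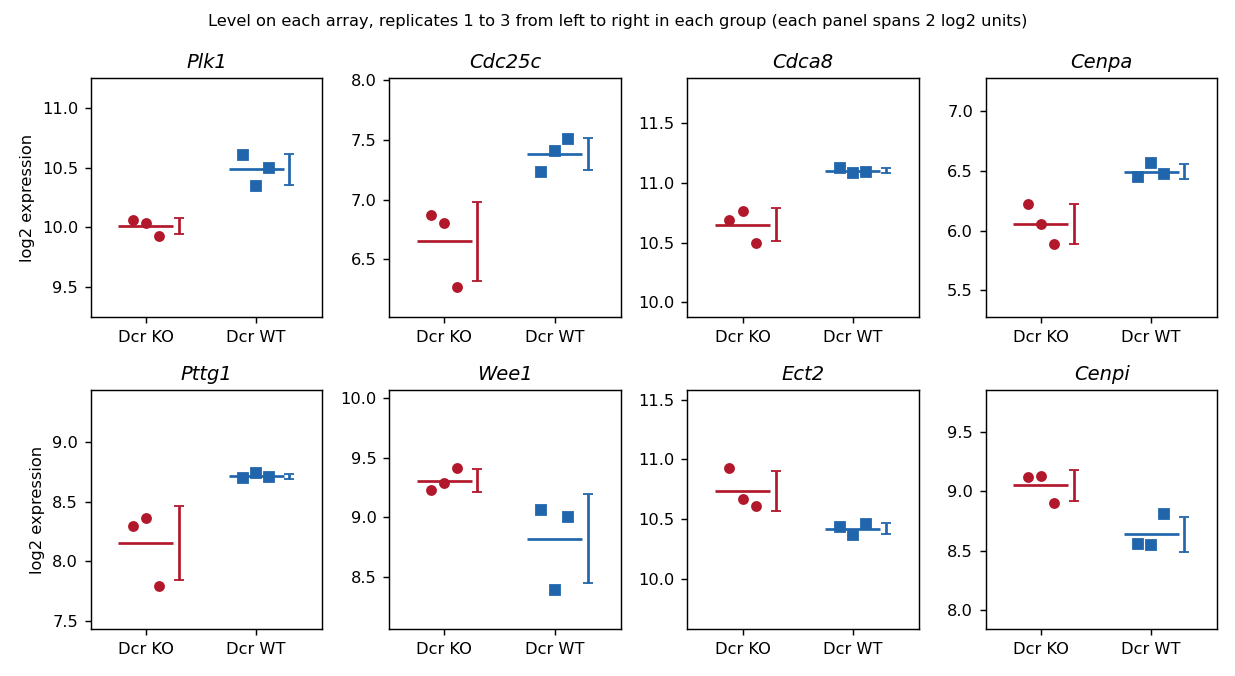
Log2 level (y axis) of 8 mitotic genes on each array, with the 3 Dcr KO arrays as circles on the left and the 3 Dcr WT arrays as squares on the right of each panel, horizontal lines for the means and bars for the SD. Plk1, Cdc25c, Cdca8, Cenpa and Pttg1 have every Dcr KO array below every Dcr WT array, and Wee1, Ect2 and Cenpi have every Dcr KO array above.

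All 6 genes of the Aurora kinases and the chromosomal passenger complex had differences below 0, beside 53.0% of all genes tested. Their median was -0.29, and 1 of them was lower by the test, beside 6.42% of all genes tested. That gene, Cdca8, encodes borealin, the subunit that helps to place Aurora B at centromeres. It had 10.69, 10.76 and 10.50 in Dcr KO arrays, against 11.13, 11.09 and 11.09 in Dcr WT arrays, and the Dcr WT values were nearly equal. The difference was -0.45 ± 0.11 (SE, n = 3 arrays a group; limma adjusted p = 0.0313), or 73.1% of Dcr WT, and its 3 probe sets gave -0.50, -0.40 and -0.46, each with all Dcr KO arrays below all Dcr WT arrays. The printed Cdca8 stretch holds a CHR and 4 CCAAT boxes.

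Birc5 (survivin), Incenp and Aurkb, the other subunits of that complex, had differences of -0.28, -0.31 and -0.32 and did not pass (limma adjusted p = 0.0784, 0.131 and 0.204). Birc5, named after its values were seen, had 10.83, 10.87 and 10.89 in Dcr KO arrays, against 11.16, 11.10 and 11.16 in Dcr WT arrays, with no overlap and little spread in either group. Incenp, the scaffold, had 5 probe sets that disagreed, with differences from -0.87 to 0.08 and -0.12 for the brightest. Aurka, the spindle pole kinase, had a difference of -0.10 over 2 probe sets, of which one was dim, at 1.88 in Dcr KO and 1.68 in Dcr WT cells. Its brightest probe set gave 10.32, 10.33 and 10.20 in Dcr KO arrays, against 10.79, 10.45 and 10.78 in Dcr WT arrays, a difference of -0.39 (limma adjusted p = 0.076 among brightest probe sets). Tpx2, which activates Aurka, had a difference of -0.15, or -0.23 by its brightest probe set, and its groups did not overlap either way. Aurka was named after its values were seen.

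The centromere and inner kinetochore genes had differences of both signs. Of 7 tested, 1 was lower, 4 had differences below 0 and 3 above, and the median was -0.03. Among all genes tested, 6.42% were called lower and 53.0% had differences below 0, so these counts were not far from the array. Cenpa, the histone H3 variant that marks centromeres, had 6.23, 6.06 and 5.89 in Dcr KO arrays, against 6.45, 6.57 and 6.47 in Dcr WT arrays. The groups did not overlap, and the difference was -0.44 ± 0.12 (SE, n = 3 arrays a group; limma adjusted p = 0.0446), or 73.8% of Dcr WT. Its dimmest probe set averaged 0.88 in Dcr KO and 0.86 in Dcr WT cells on the log2 scale, and the other 2 gave differences of -0.58 and -0.76.

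Cenpi, Cenph and Cenpk encode subunits of the same inner kinetochore complex and had differences of 0.41, 0.16 and -0.22. Cenpi, named after its values were seen, had 9.12, 9.13 and 8.90 in Dcr KO arrays, against 8.56, 8.55 and 8.81 in Dcr WT arrays. Its groups did not overlap, though Dcr KO replicate 3 and Dcr WT replicate 3 were close, and the difference did not pass (limma adjusted p = 0.0594). Cenpk had a brightest probe set with 9.31, 9.23 and 9.15 in Dcr KO arrays, against 9.55, 9.63 and 9.61 in Dcr WT arrays, while its 2 dimmer probe sets overlapped between the groups. Cenpk and Cenpb were likewise named after their values were seen. Cenpt, Cenpn and Cenpc1, which link centromeric chromatin to the outer kinetochore, had differences of 0.29, -0.31 and -0.03, and none of these passed. Cenpn had -0.18 by its brightest probe set. Cenpb, below the minimum, had 3.38, 3.28 and 3.46 in Dcr KO arrays, against 3.39, 3.33 and 3.30 in Dcr WT arrays, which overlapped.

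The outer kinetochore, which holds the microtubules, gave 0 calls by limma in either direction, 0 at an unadjusted p under 0.05, and overlapping groups for all 6 genes over the mean of their probe sets. By brightest probe sets 2 of the 6, Cenpe and Cenpf, had all Dcr KO arrays below all Dcr WT arrays, and 1 passed. Over all genes tested that way, 22.9% had all Dcr KO arrays below and 8.02% were called lower. The 6 mean differences ran from -0.21 to 0.08 with a median of -0.09. The smallest p belonged to the kinesin gene Cenpe, with 7.63, 7.98 and 8.03 in Dcr KO arrays, against 8.27, 8.10 and 7.90 in Dcr WT arrays. The groups overlapped and the difference was -0.21 ± 0.15 (SE, n = 3 arrays a group; limma adjusted p = 0.36). Its brightest probe set had 9.76, 10.10 and 9.82 in Dcr KO arrays, against 10.19, 10.34 and 10.18 in Dcr WT arrays, a difference of -0.34 with no overlap that did not pass (limma adjusted p = 0.104). Of the 4 subunits of the Ndc80 complex, Ndc80 (0.08), Nuf2 (-0.04) and Spc25 (-0.0033) had differences near 0. Spc24 had -0.15, with a 95% interval from -0.45 to 0.14. For Nuf2 the 95% interval ran from -0.27 to 0.20, so changes within that range, in either direction, were not excluded with 3 arrays a group.

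Cenpf, named after its values were seen, a large protein of the outer kinetochore and nuclear envelope, depended on the probe sets used. The mean of its 3 probe sets gave a difference of -0.15 with overlapping groups. Its brightest probe set had 10.45, 10.66 and 10.29 in Dcr KO arrays, against 10.93, 11.11 and 10.85 in Dcr WT arrays, a difference of -0.50 (limma adjusted p = 0.0447 among brightest probe sets). The other 2 were below the minimum of 4, with differences of -0.42 and 0.47.

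No spindle checkpoint gene passed over the mean of its probe sets (0 of 5 by limma, and 0 at an unadjusted p under 0.05), and the groups overlapped for each of the 5. By brightest probe sets 0 of 5 passed, 1 was lower at an unadjusted p under 0.05, and 2, Bub1b and Bub1, had all Dcr KO arrays below all Dcr WT arrays. The share of all genes with all Dcr KO arrays below was 22.9% that way. Bub1b, which encodes BubR1 of the mitotic checkpoint complex, had 7.85, 7.65 and 7.62 in Dcr KO arrays, against 7.79, 8.01 and 7.88 in Dcr WT arrays. Dcr KO replicate 1 was above Dcr WT replicate 1, and the difference was -0.18 ± 0.11 (SE, n = 3 arrays a group; limma adjusted p = 0.289). That mean includes a dim probe set, at 2.99 in Dcr KO and 2.86 in Dcr WT cells. The brightest had 10.26, 10.26 and 9.93 in Dcr KO arrays, against 10.36, 10.54 and 10.52 in Dcr WT arrays, a difference of -0.32 (limma adjusted p = 0.128), and the next gave -0.36, both without overlap. Bub3, the partner of Bub1 and BubR1, had 5.77, 5.92 and 5.92 in Dcr KO arrays, against 5.80, 5.78 and 5.58 in Dcr WT arrays, a difference of 0.15 ± 0.11 with overlap (SE, n = 3 arrays a group; limma adjusted p = 0.369). Its sign rested on dim probe sets, since the brightest of its 5 gave 11.73, 11.81 and 11.71 in Dcr KO arrays, against 11.88, 11.81 and 11.93 in Dcr WT arrays, a difference of -0.12. The checkpoint kinase Ttk (Mps1) also changed sign, with -0.12 over both probe sets and 0.08 by the brighter one. Bub1 and Mad2l1, a kinase and the inhibitor of Cdc20, had differences of -0.08 and -0.06, and the brightest probe set of Bub1 gave -0.18.

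The 4 genes of anaphase and mitotic exit had differences below 0, beside 53.0% of all genes tested. Their median was -0.25, and none passed (0 by limma, 2 lower at an unadjusted p under 0.05). Pttg1, securin, the inhibitor of separase, had 8.29, 8.36 and 7.79 in Dcr KO arrays, against 8.70, 8.74 and 8.71 in Dcr WT arrays. The Dcr WT values were nearly equal, Dcr KO replicate 3 was far below the other two, and the groups did not overlap. The difference of -0.56 ± 0.16, or 67.7% of Dcr WT, just missed the threshold (SE, n = 3 arrays a group; limma adjusted p = 0.0515). Each of its 3 probe sets had all Dcr KO arrays below all Dcr WT arrays, and the brightest, at 11.50, 11.58 and 11.21 in Dcr KO arrays, against 11.83, 11.92 and 12.06 in Dcr WT arrays, passed among brightest probe sets (-0.51, limma adjusted p = 0.042). Espl1, separase itself, which cuts cohesin, had a difference of -0.37 with no overlap (limma adjusted p = 0.0956). The activators of the anaphase-promoting complex, Cdc20 and Fzr1, had differences of -0.13 (-0.06 by the brightest probe set) and -0.05.

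Top2a, Prc1 and Ect2 serve chromosome structure and cytokinesis, and their differences had both signs. Top2a, the topoisomerase that untangles sister chromatids, had 7.73, 7.66 and 7.59 in Dcr KO arrays, against 7.97, 7.93 and 7.90 in Dcr WT arrays, with no overlap. Its difference was -0.27 ± 0.09 (SE, n = 3 arrays a group; limma adjusted p = 0.0911). Ect2, which is needed for cytokinesis, had 10.93, 10.67 and 10.61 in Dcr KO arrays, against 10.43, 10.37 and 10.46 in Dcr WT arrays, with no overlap and a difference of 0.32 ± 0.11 that did not pass (SE, n = 3 arrays a group; limma adjusted p = 0.102). Prc1, which bundles midzone microtubules, had -0.14 with overlapping groups, and -0.27 by its brightest probe set, where all Dcr KO arrays lay below all Dcr WT arrays.

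Of the transcription factors that drive G2 and M genes, Mybl2 had 9.79, 9.66 and 9.66 in Dcr KO arrays, against 10.01, 10.01 and 9.97 in Dcr WT arrays. The groups did not overlap, yet the difference of -0.30 ± 0.09 did not pass (SE, n = 3 arrays a group; limma adjusted p = 0.0739), and its brightest probe set gave -0.19. Foxm1 had a difference of -0.08 with overlap.

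The level of the probe set mattered to the counts. Of the 86 probe sets, 18, belonging to 14 genes, had a mean under 4. Those 18 had a median difference of 0.02 (6 below 0 and 11 above), while the other 68 had a median of -0.23 (56 below 0 and 12 above). Tested singly, 2 of the 68 were lower and 0 higher (25 and 3 at an unadjusted p under 0.05), one each of Cdc25c and Cdca8, against 3.07% lower and 4.69% higher of all probe sets tested. The unadjusted counts were not made over all probe sets. With 1 brightest probe set for each gene, 6 of 42 members were lower: Plk1, Cdca8, Cenpa, Cenpf, Cenpk and Pttg1. None (0) was higher (16 lower and 4 higher at an unadjusted p under 0.05). That is 14.3% lower, against 8.02% lower and 7.71% higher of the 9702 genes tested that way. At an unadjusted p under 0.05, 1815 of the 9702 genes were lower and 1442 higher. All Dcr KO arrays lay below all Dcr WT arrays for 19 of the 42 (45.2%) and above for 4, against 22.9% below and 17.7% above over all genes. The median difference was -0.19, and -0.04 over all genes.

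**Figure D5:**
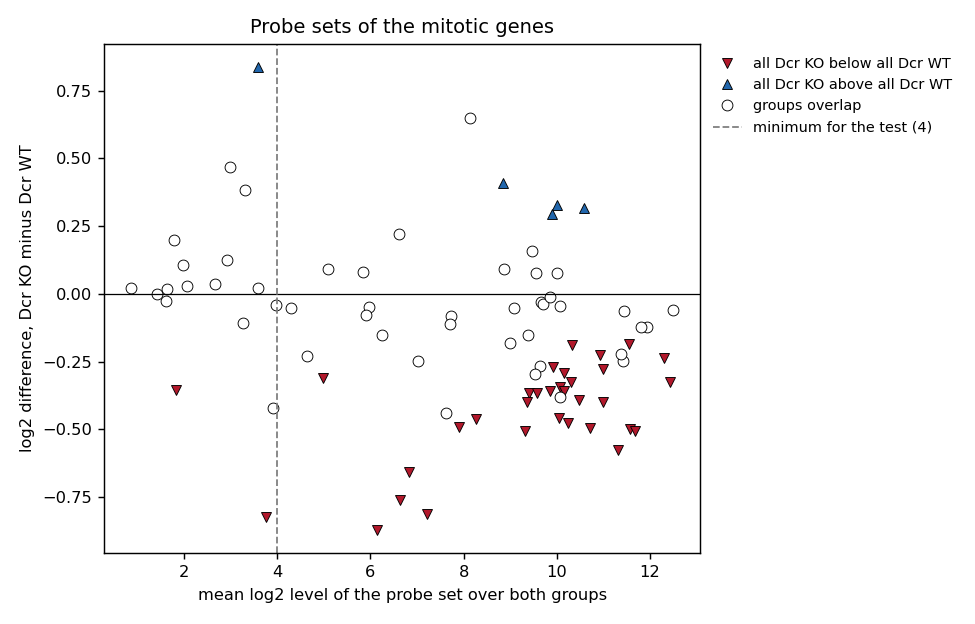
Log2 difference, Dcr KO minus Dcr WT (y axis), against mean log2 level over both groups (x axis) for the 86 probe sets of the mitotic genes. Triangles mark the probe sets whose groups do not overlap (down for Dcr KO below, up for Dcr KO above) and the dashed line is the minimum of 4, left of which the 18 probe sets have a median difference of 0.02.

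The calls were sensitive to single arrays. With each of the 6 arrays left out in turn, Plk1 passed only without Dcr WT replicate 2, Cenpa only without Dcr KO replicate 1, Cdc25c without Dcr KO replicate 1 or Dcr KO replicate 3, and Cdca8 in 0 of 6 (limma adjusted p from 0.0626 to 0.082). All 4 differences stayed below 0 in each of the 6, the ranges being -0.55 to -0.42 for Plk1, -0.85 to -0.55 for Cdc25c, -0.51 to -0.38 for Cdca8 and -0.52 to -0.35 for Cenpa. Of the 6 members called by brightest probe sets, Plk1 passed only without Dcr WT replicate 2, Cenpa only without Dcr KO replicate 1, and the other 4 in 0 of 6. A two-sided permutation test of a single gene cannot go below 0.1 with 3 arrays against 3.

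Other genes of the mitotic machinery had few calls, whose balance depended on the probe sets used. Of 102 further genes in 6 lists, 97 were tested, 2 were lower and 4 higher, and the median difference was -0.01, beside 6.42% lower and 6.91% higher of all genes tested. By brightest probe sets the balance turned, with 7 of 98 lower, 3 higher and a median of -0.06, beside 8.02% lower and 7.71% higher of all genes. The 7 were Anapc11, Fbxo5, Pmf1, Ncapd2, Ncaph2, Hmmr and Ensa, and the 3 were Rad21, Cep55 and Rbl2. Over the mean of probe sets, the anaphase-promoting complex list had 1 of 15 lower, Fbxo5 (Emi1), an inhibitor of the complex, at 10.23, 10.23 and 10.30 in Dcr KO arrays, against 10.71, 10.54 and 10.63 in Dcr WT arrays (-0.37, limma adjusted p = 0.0419). Other kinetochore and centromere proteins had 1 of 21 lower and 1 higher. Pmf1, a subunit of the Mis12 complex, had 5.05, 5.05 and 4.98 in Dcr KO arrays, against 5.56, 6.09 and 5.94 in Dcr WT arrays (-0.84, limma adjusted p = 0.0128). Zwint, a kinetochore scaffold, was higher by 0.45 (limma adjusted p = 0.0459), but its brightest probe set, 1 of 7, gave 0.27 and did not pass (limma adjusted p = 0.203).

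Cohesin and condensin had 1 of 19 higher, the cohesin subunit Rad21 (0.54, limma adjusted p = 0.0307). Mitotic kinesins and spindle proteins had 1 of 18 higher, the abscission protein Cep55, at 9.73, 9.88 and 10.16 in Dcr KO arrays, against 8.83, 7.93 and 8.81 in Dcr WT arrays. Its difference was 1.40, or 2.64-fold (limma adjusted p = 0.014). Other mitotic kinases and their regulators had 0 of 16 past the test by limma, with 2 lower and 2 higher at an unadjusted p under 0.05. The smallest p there was that of Mastl, the Greatwall kinase, with a difference of 0.36 (limma adjusted p = 0.0597). Of the MuvB and pocket proteins, 1 of 8 was higher, the pocket protein Rbl2 (p130), at 5.41, 5.23 and 4.92 in Dcr KO arrays, against 4.13, 4.02 and 4.16 in Dcr WT arrays (1.08, limma adjusted p = 0.0056). With 1 array left out, Cep55 and Rbl2 passed in 6 of 6 fits, Pmf1 in 5 (not without Dcr WT replicate 3), Rad21 in 2 (leaving out either replicate 3 of Dcr KO or replicate 1 of Dcr WT), Zwint only without Dcr KO replicate 1, and Fbxo5 in 0. By brightest probe sets Pmf1, Cep55 and Rbl2 passed in 6 of 6, Anapc11 in 4 (lost on leaving out replicate 2 of Dcr KO or replicate 3 of Dcr WT), Rad21 only without Dcr KO replicate 3, Ncaph2 only without Dcr WT replicate 2, Ensa only without Dcr KO replicate 1, and Fbxo5, Ncapd2 and Hmmr in 0. Zwint, Rad21, Cep55 and Mastl are also in the study's candidate list, so their direction is no independent evidence.

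Correlations between arrays over all 45037 probe sets were 0.9935 to 0.9972 within Dcr KO, 0.9922 to 0.9956 within Dcr WT and 0.9837 to 0.9936 across the groups. All 10 pluripotency markers reached the minimum and 0 passed (1 lower and 3 higher at an unadjusted p under 0.05), with summed linear levels of 52231 to 53333 in Dcr KO and 46753 to 51391 in Dcr WT arrays. Fibroblast markers reached it for 2 of 8 (summed levels of 82.8 to 86.9 in Dcr KO and 66.7 to 95.8 in Dcr WT arrays) and primitive endoderm markers for 1 of 8 (54.1 to 58.7 in Dcr KO and 53.8 to 57.9 in Dcr WT arrays). Neural markers reached it for 2 of 6 on the array, with sums of 525 to 606 in Dcr KO and 327 to 379 in Dcr WT arrays, and Tubb3 was higher (0.73, limma adjusted p = 0.01). By brightest probe sets 3 of 5 neural markers were higher, Tubb3, Pax6 and Sox1, beside 7.71% of all genes tested that way. Map2 had a difference of 0.23 and Nes -0.44, and neither passed (limma adjusted p = 0.533 and 0.328). Pax6 had 5.22, 5.54 and 5.54 in Dcr KO arrays, against 3.98, 3.38 and 3.71 in Dcr WT arrays (1.74, limma adjusted p = 0.00221). Sox1 had 5.62, 5.34 and 4.73 in Dcr KO arrays, against 3.51, 3.90 and 3.52 in Dcr WT arrays (1.59, limma adjusted p = 0.00636). The fibroblast marker Col3a1, 1 of 4 tested that way, had 5.79, 6.34 and 6.62 in Dcr KO arrays, against 3.41, 5.04 and 3.40 in Dcr WT arrays (2.30, limma adjusted p = 0.0159, lost without Dcr WT replicate 1 or Dcr WT replicate 3). The fibroblast markers did not move together. By brightest probe sets Col1a2 had a difference of -0.99, Col1a1 0.46 and Pdgfrb 0.0067, and none of these passed (limma adjusted p = 0.0772, 0.24 and 0.987). Trophectoderm markers reached it for 4 of 7, with sums of 18049 to 19596 in Dcr KO and 14289 to 17999 in Dcr WT arrays. The part of these other cell types in the mitotic differences was not tested.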

How the data were processed

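RNA of 3 Dcr KO and 3 Dcr WT cultures was hybridised to oligonucleotide arrays. The authors deposited log2 values per probe set, made with GCRMA 2.20.0 in R 2.11.1 per the submitters' processing notes. A supplementary legend of the study states that acute and chronic deletion samples were normalized together. Whether the deposited values come from that run is not stated, and it could shift them. GCRMA models the background of each probe, so differences of dim probe sets may be less certain. Precision is limited by the number of arrays.

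Probe sets with 1 symbol were averaged per gene. Genes with a mean of at least 4 (16 linear) were compared by limma 3.58.1 in R 4.3.3 (functions lmFit and eBayes), adjusted after Benjamini and Hochberg, and called at 0.05. The script was tested on simulated data. Alternatives were other minimums, the brightest probe set, quantile normalization, median centring, a trended and robust eBayes, a replicate block and leaving out each array.

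The 43 listed genes were a pathway set that was not taken by values. The members named singly, the further lists and the tests were chosen with earlier results of these data known. Members given with every array's value were those past the test, the 5 with the largest differences, the smallest p in each role, and Wee1, Bub3 and Ect2. Birc5, Cenpi, Cenpb, Aurka, Cenpk and Cenpf were added after their values were seen. The lists were the anaphase-promoting complex, other kinetochore proteins, cohesin and condensin, kinesins and spindle, other mitotic kinases, MuvB and pocket proteins, and markers of pluripotent, fibroblast, primitive endoderm, neural and trophectoderm cells. Promoter windows came from RefSeq on GRCm38.p6. Protein sequences were not used here. Figures were drawn with matplotlib 3.10.9.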

Additional observations from a re-analysis of the deposited data

How the results depend on the processing

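The number of members called lower was 4, and 3 to 6 under the other minimums, the brightest probe set, quantile normalization, median centring and a trended, robust eBayes. With 1 array left out it was 0 to 2, and 0 to 2 by brightest probe sets, an alternative chosen after seeing the data. It was 0 without Dcr KO replicate 2, Dcr WT replicate 1 or Dcr WT replicate 3. The members' median difference stayed below 0, at -0.18 to -0.088, the upper end being without Dcr KO replicate 3. Genes called over the array were 357 to 783 with 1 array left out, against 1171. The pathway lists had 2 to 6 calls, against 6, and 10 by brightest probe sets (7 lower and 3 higher, against 2 lower and 4 higher). No member was called higher (0) under any alternative.

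The labels do not state that same-numbered arrays were paired. Same-numbered deviations correlated at -0.22, -0.02 and 0.03, and differently numbered ones at -0.23 to 0.31. With 3 arrays a group these values cannot decide whether the arrays were paired. With the number as a block, 597 genes, 0 members, 0 members by brightest probe sets and 3 pathway genes passed.

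Some differences near 0 turned direction. The brightest probe set gave -0.12 for Bub3 and 0.077 for Ttk. With 1 array left out, Cenpc1 ran from -0.063 to 0.027 (above 0 without Dcr KO replicate 3), Cenpf from -0.28 to 0.0039 (Dcr KO replicate 1), Nuf2 from -0.093 to 0.0017 (Dcr KO replicate 3 or Dcr WT replicate 3), Spc25 from -0.078 to 0.082 (Dcr KO replicate 1, at 0.0475, or Dcr WT replicate 3), Bub1 from -0.16 to 0.034 (Dcr KO replicate 3, at 0.0092, or Dcr WT replicate 1) and Fzr1 from -0.24 to 0.075 (Dcr WT replicate 1, at 0.005, or Dcr WT replicate 3). The cause was not tested. With 2 arrays left in a group fewer samples enter the fit. Signal over background limits the 18 probe sets under the minimum.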
